A study of Mus musculus with 2 samples.

Results

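The mouse miR-26 genes are Mir26a-1, Mir26a-2 and Mir26b, 3 of the 1973 miRNA genes counted in fetal mouse liver. They were chosen by name and by their place in introns of Ctdspl, Ctdsp2 and Ctdsp1, and the counts of their own strand, named in that choice, are given here as a description, with no test. Small RNA of under 30 nucleotides was sequenced from 2 pools of livers at embryonic day 15.5, all of the strain B6NCrl, of both sexes, healthy and untreated as far as the labels say. Replicate 1 was a pool of 78 embryos and replicate 2 a pool of 62. They form 1 group, so no conditions could be compared, and the spread between them is that of pools and library making, not of single animals.

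A microRNA (miRNA) is cut from a hairpin precursor, which can release a mature strand from its 5′ side (the 5p arm) and from its 3′ side (the 3p arm). The arm that is kept guides silencing complexes to messages that pair with its seed, bases 2 to 8. miR-26 is known to repress the Polycomb methyltransferase Ezh2 and cell-cycle cyclins, to be lower in hepatocellular carcinoma than in normal liver, and to slow liver tumours in mice when miR-26a is restored. Its genes lie in introns of genes for small phosphatases of the carboxy-terminal tail of RNA polymerase II, which also help to silence neuronal genes in other tissues.

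The mature sequences are shown because their likeness decides which reads can be given to 1 gene. They are from RefSeq on GRCm38.p6, matched by symbol for all 3 genes, with the seed in capitals.
miR-26a-5p of Mir26a-1 and of Mir26a-2: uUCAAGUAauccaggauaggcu
miR-26b-5p of Mir26b: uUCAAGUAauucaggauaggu
miR-26a-1-3p of Mir26a-1: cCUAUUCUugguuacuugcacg
miR-26a-2-3p of Mir26a-2: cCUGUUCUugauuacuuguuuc
miR-26b-3p of Mir26b: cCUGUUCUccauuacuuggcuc
The 5p arms of Mir26a-1 and Mir26a-2 were identical over all 22 bases. Counted from 1 at the 5′ end, miR-26b-5p differed from them by C11U and C21U and was 1 base shorter, and its seed UCAAGUA was the same. Among the mature arms of the table, only those 3 5p arms carried this seed. On the 3p side, Mir26a-2 and Mir26b shared the seed CUGUUCU, while Mir26a-1 had CUAUUCU, a change at A4G. The 3p arms of Mir26a-1 and Mir26a-2 differed at 6 of 22 bases, those of Mir26a-2 and Mir26b at 4 and those of Mir26a-1 and Mir26b at 8.

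Aligned end to end with gaps counted, the hairpins of Mir26a-1 and Mir26a-2 were identical at 72.5% of positions. The figure was 68.5% for Mir26a-1 and Mir26b and 66.3% for Mir26a-2 and Mir26b. The hairpins follow, with both mature arms in capitals.
Mir26a-1: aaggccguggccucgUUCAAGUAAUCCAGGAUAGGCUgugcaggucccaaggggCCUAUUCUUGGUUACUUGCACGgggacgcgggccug
Mir26a-2: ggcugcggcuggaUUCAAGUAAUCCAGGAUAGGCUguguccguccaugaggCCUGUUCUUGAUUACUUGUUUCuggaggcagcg
Mir26b: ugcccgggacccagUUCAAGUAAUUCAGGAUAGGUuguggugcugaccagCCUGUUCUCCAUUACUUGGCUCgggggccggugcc
The longest run shared by Mir26a-1 and Mir26a-2 was 25 bases, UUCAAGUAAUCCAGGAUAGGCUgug, with the 5p arm in capitals. It holds the whole 5p arm and the 3 bases after it, so a read that lies within it matches both genes. The longest run of Mir26b shared with either was 11 bases, and no window of 18 bases of its hairpin lay in any other of the 1005 hairpins of the table. Of the 18-base windows of Mir26a-1 and Mir26a-2, 8 of 73 and 8 of 67 were shared, all in the run above, and no window of 26 bases was. This search covered annotated hairpins, not the genome.

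Reads that map to several places are listed in the deposited tables apart from the genes. They were 29.3% of all 14666947 reads in replicate 1 and 31.1% of 8454226 in replicate 2. They came to 18.2 and 18.8 times the count of Mir26b, and how many of them carry miR-26a-5p was not tested, since the tables do not name their sequences. The counts of Mir26a-1 and Mir26a-2 therefore do not measure the amount of miR-26a-5p. The tables also do not separate the 5p from the 3p arm of a gene.

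Sense counts, those on the strand of the gene, summed over miRNA genes to 5529166 in replicate 1 and 3169882 in replicate 2, and levels are given as CPM, the counts of a gene divided by that sum and multiplied by 1000000. Of the 1973 genes, 352 were detected, with at least 10 sense counts in both libraries, at a median of 135 CPM. Mir122, the hepatocyte miRNA, held 18.2% and 16.9% of sense counts and ranked 1 of all genes in the tables. Of 4 hepatocyte markers 3 were detected, while Mir802 had 140 and 6 counts. Marker lists of other cells of fetal liver were present as well, with 2.71% and 1.86% of counts for 3 erythroid miRNAs and 4.48% and 4.36% for endothelial Mir126a. Leukocyte markers, of which 3 of 4 were measured, held 1.96% and 1.83%. Mesenchymal markers, of which 3 of 4 were detected, held 1.75% and 1.59%. Among the erythroid miRNAs, Mir451a was lower in replicate 2 (18658 and 8843 CPM). Mir144 (7777 and 8918) and Mir486 (715 and 818) were higher there. The skeletal muscle markers Mir206 and Mir133b, not of liver cells, held 0.144% and 0.265%. The neuronal markers Mir124a-1 and Mir9-2 had no sense count, while Mir9-3, a copy of Mir9-2 with the same mature arms, had 17 and 4. A read of those arms matches both Mir9 genes, so the missing counts of Mir9-2 do not show that its miRNA is absent. Mir124a-1 had no mature arm in RefSeq, so whether its arms are shared was not tested. In bulk tissue, more cells of a type and more RNA per cell cannot be told apart.

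Mir26b, at chr1:74394310-74394394 on the plus strand of GRCm38 (ENSMUSG00000065468.1), had 235936 sense counts in replicate 1 and 139870 in replicate 2. These were 42671 CPM (exact 95% binomial interval 42503 to 42840) and 44125 CPM (43899 to 44351). Both libraries placed it among the most abundant miRNA genes, at rank 4 in replicate 1 and rank 3 in replicate 2. Its mean of 43398 ± 1028 CPM (SD, n = 2) was 321 times the median of detected genes, and 98.9% of detected genes lay below it.

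Mir26a-2, at chr10:126995530-126995613 on the plus strand (ENSMUSG00000065430.1), had 185 and 125 sense counts. Its level was 33.5 CPM (28.8 to 38.6) in replicate 1 and 39.4 CPM (32.8 to 47.0) in replicate 2, a mean of 36.4 ± 4.22 CPM. It was detected in both libraries, at rank 226 and rank 218, but below the median of detected genes. Those intervals overlap between the libraries.

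Mir26a-1, at chr9:119031796-119031885 on the plus strand (ENSMUSG00000065513.1), was the lowest of the family, with 24 and 13 sense counts. They gave 4.34 CPM (2.78 to 6.46) and 4.10 CPM (2.18 to 7.01), a mean of 4.22 ± 0.169 CPM. Both values lay above the level of 3 counts, the most that a count of 0 allows, which stood for 0.543 CPM in the first library and 0.946 CPM in the second. The SD is smaller than the counting error here, so it understates the uncertainty of this level. Only 4.83% of detected genes lay below it.

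**Figure D1:**
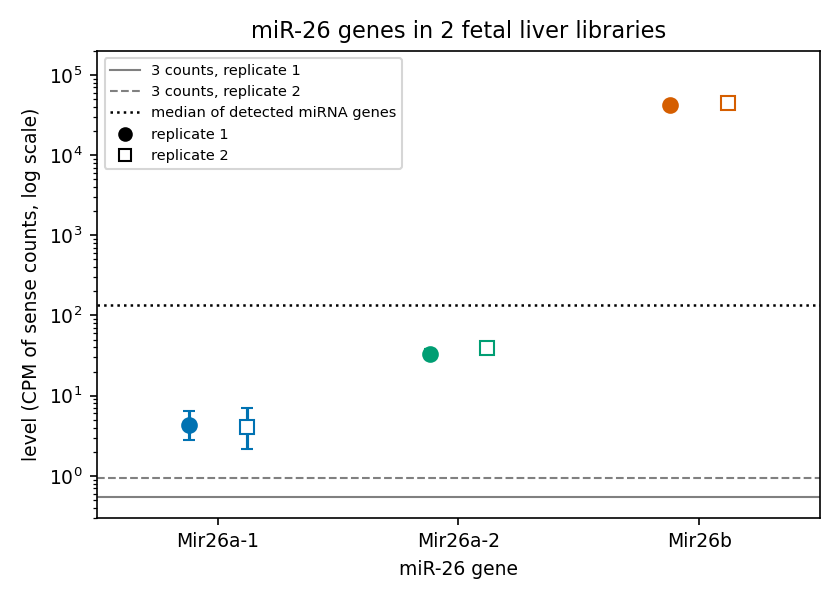
Level of each miR-26 gene in CPM of sense counts, on a log axis, in replicate 1 (filled circles) and replicate 2 (open squares), with exact 95% binomial intervals. Mir26b lies above the dotted median of detected miRNA genes (135 CPM), and Mir26a-2 and Mir26a-1 lie below it but above the grey lines of 3 counts.

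The order Mir26b, Mir26a-2, Mir26a-1 was the same in both libraries, with no overlap between the genes' intervals. Together the family held 4.27% of sense counts in replicate 1, with an exact 95% interval from 4.25 to 4.29%. In replicate 2 it held 4.42%, with an interval from 4.39 to 4.44%. Mir26b alone made up 99.91% of the family's counts in replicate 1 and 99.90% in replicate 2. The Mir26a genes supplied 209 of 236145 and 138 of 140008 counts.

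Mir26b had 1275 times the counts of Mir26a-2 in replicate 1 and 1119 times in replicate 2. Divided by the length of the annotated hairpin (85, 84 and 90 bases), mean levels were 511 ± 12.1 CPM per base for Mir26b, 0.434 ± 0.0503 for Mir26a-2 and 0.0469 ± 0.00188 for Mir26a-1. These lengths are so alike that the division could not change the order of the members. This is an order of countable reads. A read within the run shared by the Mir26a genes matches both of them, while the 5p arm of Mir26b lies in no other hairpin of the table.

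Between the Mir26a genes, whose shared arm cannot tell them apart, Mir26a-2 had 7.71 times the counts of Mir26a-1 in replicate 1 (exact 95% interval 5.02 to 12.3). In replicate 2 the ratio was 9.62 (5.42 to 18.6). Mir26a-2 was higher in both, and the ratios differed by less than their counting error. The tables hold no read sequences, so which part of either hairpin these counts come from was not tested.

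The host genes place the members alike. Mir26a-1 lies in intron 5 of 7 of the Ctdspl transcript ENSMUST00000073109.11, Mir26a-2 in intron 5 of 7 of the Ctdsp2 transcript ENSMUST00000105256.9 and Mir26b in intron 4 of 6 of the Ctdsp1 transcript ENSMUST00000027367.13, each on the host's strand. In all of these transcripts 3 exons follow the miRNA. No exon of the host overlapped Mir26a-1 or Mir26b in the annotation, release M21. At Mir26a-2, 2 further Ctdsp2 transcripts, ENSMUST00000105255.2 and ENSMUST00000217738.1, begin at base 126995613, the last base of the miRNA gene, and so overlap it by 1 base.

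Around that shared place the hosts differ in size. Ctdspl (chr9:118926453-119043998) spans 117546 bases, and Mir26a-1 begins 105343 bases from the transcript start, in an intron of 3283 bases. Ctdsp2 (chr10:126978717-126999975) spans 21259 bases, and Mir26a-2 lies 16813 bases from the start, in an intron of 1946 bases and 241 bases before the next exon. Ctdsp1 (chr1:74391509-74397285), the host of the member with the most counts, is the shortest at 5777 bases, and Mir26b lies 2801 bases from the start in an intron of 564 bases. Transcription of the hosts was not measured, as the tables hold miRNA genes only.

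**Figure D2:**
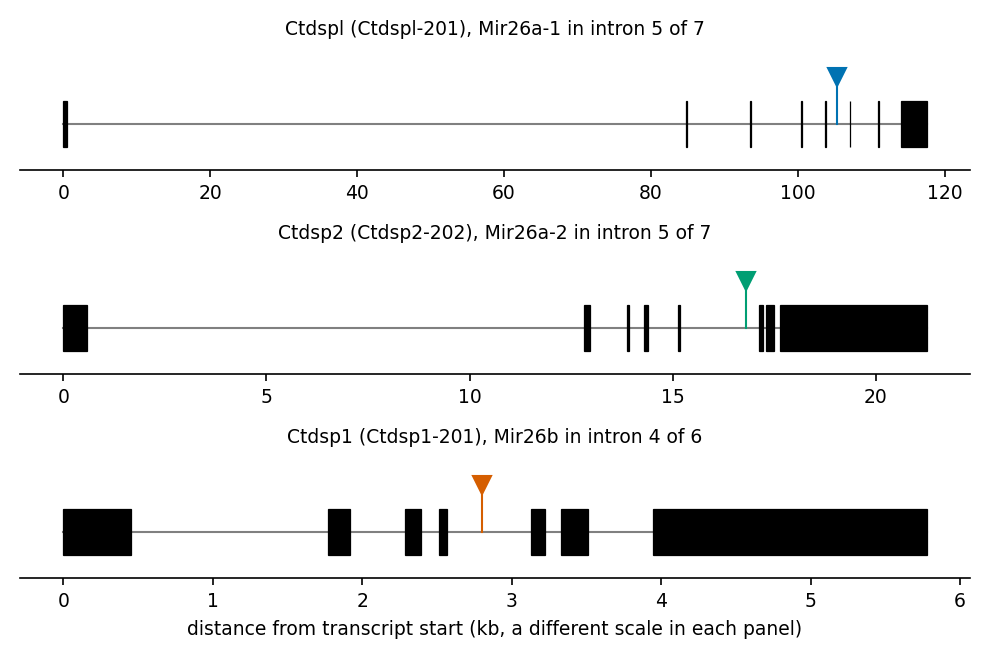
Exons (black boxes) and introns (lines) of 1 transcript of each host gene, by distance from the transcript start in kb, with a triangle at the miR-26 gene. The scale differs between panels: the miRNA sits before the last 3 exons in each, 105343 bases from the start in Ctdspl, 16813 in Ctdsp2 and 2801 in Ctdsp1.

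Of 654 miRNA genes in introns of protein-coding genes on the same strand and clear of every exon of the host, 122 (18.7%) were detected, at a median of 93.8 CPM, beside 352 of 1973 (17.8%) and 135 CPM for all genes. Within this list Mir26b ranked 2, behind Mirlet7g in Wdr82 at 55446 ± 3032 CPM and ahead of Mir335 in the imprinted gene Mest at 37680 ± 5355 CPM. Mir26a-1 ranked 114 of the 122 detected. Mir26a-2 is not on this list, because of the overlap of 1 base with an exon of the shorter Ctdsp2 transcripts.

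The genes nearest to each member in level, by distance over log2(CPM + 1) in the 2 libraries, were of other families. For Mir26b they were the endothelial miRNA Mir126a, which stood at 44812 and 43586 CPM, and Mir335, at 33894 and 41467 CPM. Mir126a lay above Mir26b in replicate 1 and below it in replicate 2, so their order is not resolved, while Mir335 was below Mir26b in both. For Mir26a-2 the nearest were Mir301b at 33.8 and 37.9 CPM and Mir128-2 at 32.9 and 42.0 CPM. Next by rank, Mir877 had 43.4 and 30.3 CPM, and all of these overlap Mir26a-2 within the spread of the libraries. Mir26a-1 was nearest to Mir6944, at 4.34 and 4.42 CPM, and to Mir7036b, at 4.88 and 3.79 CPM. Mir1964 and Mir6936 ranked just above and just below it at 4.24 ± 1.14 and 3.95 ± 2.00 CPM, and none of these neighbours differed from Mir26a-1 beyond the spread.

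Levels of Mir26b were close between the pools, while the intervals of the Mir26a genes are too wide to state a match. On library sizes scaled by TMM, a method that centres the ratios of most genes, Mir26b in replicate 2 was 1.02 times its level in replicate 1, a log2 ratio of 0.02 (exact 95% interval 0.01 to 0.03, counting error only). The log2 ratio was 0.21 for Mir26a-2 (-0.13 to 0.55) and -0.11 for Mir26a-1 (-1.20 to 0.92). No member was 1.5-fold apart, though the interval of Mir26a-1 takes in differences of that size. Of the genes whose mean level reached 100 CPM, Mir26b among them, 4 of 187 (2.14%) were that far apart in either direction. With the minimum lowered to 1 CPM, which takes in the Mir26a genes, it was 129 of 468 genes with counts in both libraries (27.6%).

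**Figure D3:**
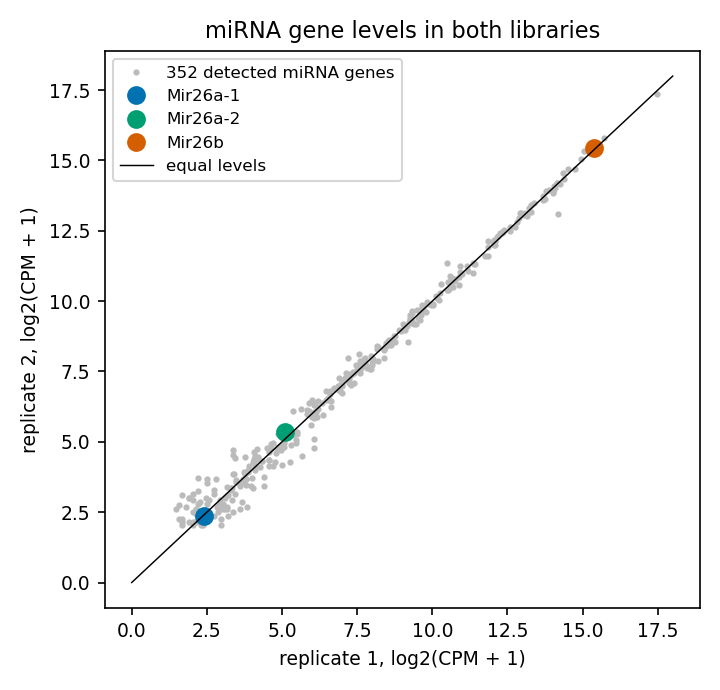
Level of the 352 detected miRNA genes (grey) in replicate 1 and replicate 2, as log2(CPM + 1), with the miR-26 genes in colour and a line of equal levels. All 3 members lie close to the line, Mir26b near the top and Mir26a-1 near the bottom, where the grey points spread more widely.

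For Mir26b the difference between pools was small beside that of other abundant genes: the median size of the log2 ratio over those 187 genes was 0.12, and 11.2% of them lay closer to 0. For Mir26a-1, with 37 counts in all, the interval of the fold ran from 0.434 to 1.90, and a change within it was not detectable at this depth.

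No read lay on the strand opposite to any member in either library. This was so for 319 of the 352 detected genes (90.6%), and is not particular to miR-26. Over the whole tables, 8.77% and 9.12% of the reads assigned to miRNA genes were on the opposite strand, and Mir142b alone supplied 36.4% and 41.3% of these. Mir142b had 193651 and 131496 opposite counts beside 1 and 0 sense counts. The share over all genes is thus not an even background for miR-26. The 3 counts that a count of 0 allows would be 0.00127% and 0.00214% of the sense counts of Mir26b in replicates 1 and 2, 1.62% and 2.40% of those of Mir26a-2, and 12.5% and 23.1% of those of Mir26a-1. Counts of both strands together were therefore equal to the sense counts for each member.

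Other genes with copies give a setting for the Mir26a pair. By the RefSeq sequences, 36 families of the counted genes, with 81 genes in all, share an identical mature arm between copies, and 21 families had a detected copy. The Mir26a pair had a summed level of 40.7 CPM and ranked 15, beside a median of 146 CPM over those 21. The families with the most counts were Mir16-1 and Mir16-2, cell-cycle regulators at 4885 ± 265 and 821 ± 2.35 CPM, then Mir92-1 and Mir92-2 (4271 ± 230 and 184 ± 8.13 CPM), then Mir194-1 and Mir194-2 (16.2 ± 5.50 and 1388 ± 60.3 CPM). The RefSeq table is not complete, so other copies can exist.

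Within the 19 families of 2 copies that had a detected copy, the higher copy had a median of 7.24 times the level of the lower. Choosing families by a detected copy and dividing the higher by the lower both raise this ratio. Some lower copies had few counts, such as Mir218-1 with 5 in all and Mir3070b with 3. For the Mir26a pair this was 8.63, at rank 9 of the 19. The Mir103 pair just above it stood at 16.8 and the Mir218 pair just below at 7.24. By this ratio the Mir26a pair was near the middle of the list, which does not show how common uneven counts are among copies.

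**Figure D4:**
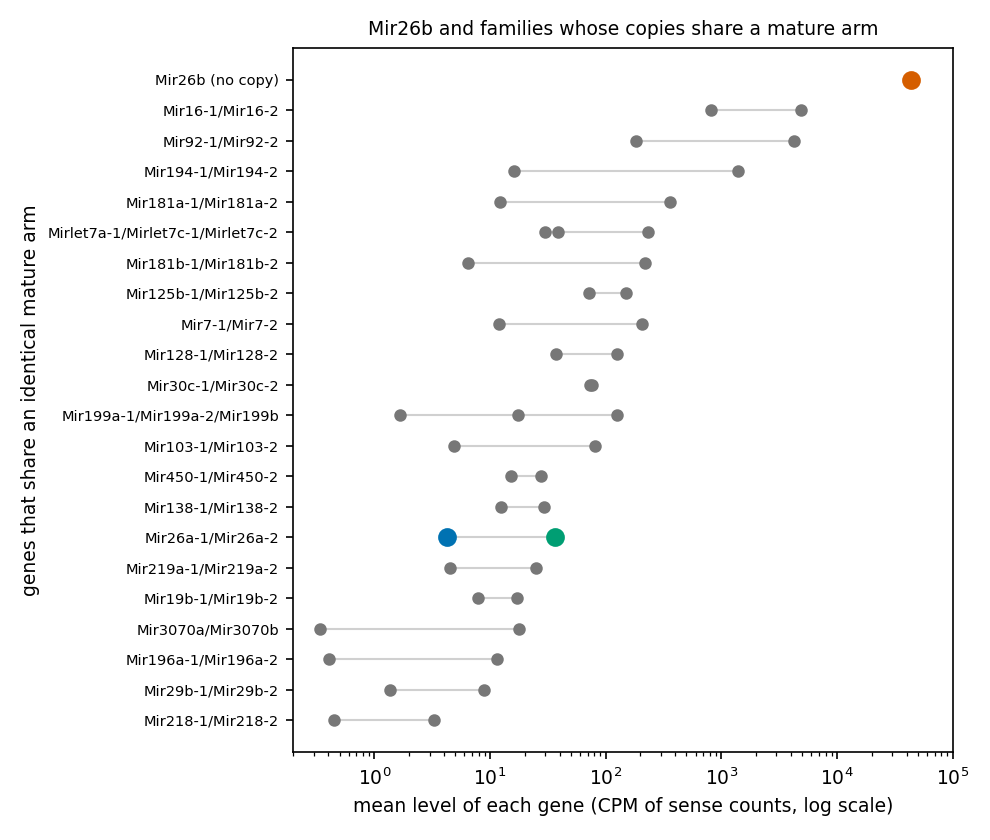
Mean level of each gene in CPM of sense counts, on a log axis, for Mir26b and for the 21 families whose copies share an identical mature arm and had a detected copy, ordered by summed level (copies at 0 are not drawn). Mir26b at 43398 CPM lies to the right of every family, and the Mir26a pair at 4.22 and 36.4 CPM lies in the lower part of the list.

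By class, 35 of 50 genes (70%) with 1 shared arm and 1 arm of their own were detected, the Mir26a genes among them. Their median was 36.4 CPM, and Mir26a-2 was itself the gene at that median. Over all genes, 352 of 1973 (17.8%) were detected, at a median of 135 CPM. That total takes in 1057 genes without a mature arm in the table, of which 35 (3.31%) were detected. It is therefore a low background for the classes of genes with known arms. Of 31 genes with every arm shared, 3 (9.68%) were detected. Of 835 genes with no shared arm in the RefSeq sequences, Mir26b among them, 279 (33.4%) were detected at a median of 183 CPM. Those sequences are not complete, so some of these genes can have copies that were not found. Above 10000 CPM lay 24 genes with no shared arm, 0 of the 81 with a shared arm and 2 genes without a mature arm in the table. These were 26 of all 1973 genes, too few for the 0 of 81 to be read as a result about shared arms.

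The 3p seed CUGUUCU of Mir26a-2 and Mir26b occurred in 2 more genes of the table, Mir7039 and Mir6932. Mir7039 had 0 sense counts in both libraries and Mir6932 had 4 and 1. Among the genes with this 3p seed, Mir26b thus had nearly all counts, though how many of its reads are of the 3p arm was not tested.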

How the data were processed

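The authors deposited raw read counts per miRNA gene, 1 table per library, for both strands, the gene's strand and the opposite strand. The assembly was mm10 (GRCm38) with annotation release M4, per the text deposited beside the tables. The counting program was not given in the sources used here, nor was the aligner. Rows that name no gene (unmapped 23.9% and 21.4%, several places 29.3% and 31.1%, outside genes 5.40% and 6.23% of all reads) entered no library total. Names, positions and hosts came from release M21, which named 1894 of 1973 identifiers, and sequences from RefSeq, which had hairpins for 869.

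Members and lists were chosen with earlier results of these data known. Besides the members, genes were named by rule: the 2 nearest in level and the rank neighbours of each, genes sharing a seed, and the 3 families of copies with the most counts. Mirlet7g was named as the first of the intronic genes, Mir103 and Mir218 as neighbours in a ranking, and Mir9-3 and Mir142b, after their values were seen. Shares have Clopper-Pearson intervals and ratios between libraries exact conditional binomial intervals, both at 95%. Intervals and floors cover counting error only, since PCR reads without molecular identifiers are not independent molecules. TMM came from edgeR 4.0.16 and alternative size factors from DESeq2 1.42.0, in R 4.3.3; the rest used Python 3.11.15 with scipy 1.17.1 and Biopython 1.88. The ratios and fold rule were run on simulated data that held counting error only, with the intervals checked on total counts, not TMM sizes. Such data cannot show how the rule and intervals hold for differences between pools.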

Additional observations from a re-analysis of the deposited data

Results flagged for a closer look

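Reads that map to several places, which enter none of the levels above, were 29.3% of all reads in replicate 1 (4302465 reads) and 31.1% in replicate 2 (2632729 reads). They drew attention because they lie outside the main measurement and a mature arm shared by Mir26a-1 and Mir26a-2 would fall among them. Their sequences are not in the tables, so their share of miR-26a-5p was not tested.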

How the results depend on the processing

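With counts of both strands, mean levels were 3.84 CPM for Mir26a-1 and 39515 CPM for Mir26b, the family held 3.96% of counts and the log2 ratio of Mir26b was 0.012. Without Mir122 in the library total they were 5.12, 44.2 (Mir26a-2) and 52634 CPM, and 5.27%. With reads mapped to several places added to the total they were 2.34, 20.2 and 24051 CPM, and 2.41%. Those reads were added to the total only, not to any gene. Any miR-26a-5p among them is left out of the Mir26a levels, so 2.41% is not another estimate of the family's share. By total counts the log2 ratio of Mir26b was 0.048. These shifts follow from the totals used. Each setting divides all members by the same total, and their both-strand counts equal their sense counts, so their order could not change. TMM and DESeq2 scaling moved no level by more than the SD. Leaving out each replicate in turn, levels ranged from 4.10 to 4.34 CPM for Mir26a-1, 33.5 to 39.4 for Mir26a-2 and 42671 to 44125 for Mir26b, the family's share from 4.27% to 4.42%, that of Mir26b within it from 99.90% to 99.91%, and the ratio of Mir26a-1 to Mir26a-2 from 0.104 to 0.130. Each such value is that of the library kept, so these ranges add no evidence of stability. Genes 1.5-fold apart were 4 under each scaling and strand setting, 20 of 288 at a minimum of 10 CPM, 2 of 87 at 1000 CPM and 129 of 468 at 1 CPM, a minimum chosen after seeing the data. No paired analysis was possible because there is 1 group. Depth limits Mir26a-1 most.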

Other observations

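Ctdsp2 holds another annotated miRNA gene besides Mir26a-2. Mir546 begins 2827 bases after it, overlaps an exon of Ctdsp2 on the same strand and had 0 sense counts in both libraries. The other hosts hold no further miRNA gene of the tables. The miRNA gene nearest to Mir26b, Mir1928, lies 187690 bases away and also had 0 sense counts, and the one nearest to Mir26a-1, Gm22008, lies 1032366 bases away with 0 as well. Mir26a-1 and Mir26b are therefore not part of a counted miRNA cluster.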
